A study of Homo sapiens with 6 samples.

Results

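The 10 genes described here encode subunits of SWI/SNF, also called BAF, a chromatin remodelling complex. They were chosen by name as the rows of a gene count table whose Ensembl identifiers carry these symbols in GENCODE, and all 10 were found among 58825 genes. The table covers HGC-27, an undifferentiated human gastric cancer cell line, in 6 libraries, of which 3 carry the label GC0643 overexpression and the other 3 Vector control. GC0643 is a gene predicted from gastric cancer genomes and missing from the reference genome. Both groups are HGC-27 cells, and the stable GC0643 line was made by retroviral infection and puromycin selection. Whether a line is 1 clone, and whether the replicates are separate cultures, is not given in the sources used here, so p-values measure only the spread between these libraries. GC0643 itself was not analysed here, and the labels were therefore not checked against it.

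SWI/SNF complexes use the energy of ATP to slide or evict nucleosomes, and so open promoters and enhancers to transcription factors. Each complex holds 1 ATPase, SMARCA4 or its paralog SMARCA2. SMARCC1, SMARCC2, SMARCB1, SMARCE1 and SMARCD proteins are core subunits, though not all of them are found in every assembly. The family forms several assemblies. Canonical BAF contains ARID1A or ARID1B together with a DPF protein, PBAF contains ARID2, PBRM1, BRD7 and PHF10, and non-canonical BAF contains BRD9 with BICRA or BICRAL. Loss-of-function mutations of subunit genes are common in human cancer, and ARID1A is among the genes most often inactivated in gastric cancer. The counts measure mRNA and say nothing of mutations, of protein or of assembled complexes.

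Because the members include pairs of paralogs, the sequences of these pairs are shown first, to let a reader see how well short reads can tell the copies apart. Coding sequences of the canonical transcripts were aligned, and the best matching stretch of 90 bases that lies within 1 exon of each gene is printed 5′ to 3′ on the coding strand. Capitals mark the bases that differ between the 2 copies. The SMARCA2 stretch lies in exon 18 of 34 at chr9:2086835-2086924 (GRCh38, plus strand) and the SMARCA4 stretch in exon 19 of 35 at chr19:11021731-11021820 (plus strand). They match at 79 of 90 bases.
SMARCA2: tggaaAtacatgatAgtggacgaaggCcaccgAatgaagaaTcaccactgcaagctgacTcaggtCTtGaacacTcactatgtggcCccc
SMARCA4: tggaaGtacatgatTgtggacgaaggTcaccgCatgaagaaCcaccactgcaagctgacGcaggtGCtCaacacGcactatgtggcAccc

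The stretches of ARID1B, in exon 13 of 20 at chr6:157184261-157184350 (plus strand), and ARID1A, in exon 12 of 20 at chr1:26771149-26771238 (plus strand), match at 77 of 90 bases.
ARID1B: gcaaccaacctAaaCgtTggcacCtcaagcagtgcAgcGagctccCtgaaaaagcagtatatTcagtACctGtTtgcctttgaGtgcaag
ARID1A: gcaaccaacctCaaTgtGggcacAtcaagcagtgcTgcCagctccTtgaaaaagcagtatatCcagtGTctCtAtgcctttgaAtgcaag

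The stretches of SMARCC1, in exon 20 of 28 at chr3:47662415-47662504 (minus strand), and SMARCC2, in exon 21 of 29 at chr12:56171760-56171849 (minus strand), match at 74 of 90 bases.
SMARCC1: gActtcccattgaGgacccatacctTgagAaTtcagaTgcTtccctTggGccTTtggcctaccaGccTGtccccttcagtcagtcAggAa
SMARCC2: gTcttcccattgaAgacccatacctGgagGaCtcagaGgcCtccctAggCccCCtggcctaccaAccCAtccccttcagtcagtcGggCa

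Even in these best matching stretches the copies differ at 11, 13 and 16 positions. Over the whole aligned coding sequence the identity was 75.4% for SMARCA2 and SMARCA4, 71.2% for ARID1B and ARID1A, and 73.3% for SMARCC1 and SMARCC2. The longest run of identical bases shared by the 2 coding sequences was 26, 25 and 23 bases. Of the 11 differences between SMARCA2 and SMARCA4, 6 put a G or C into SMARCA4 only and 2 into SMARCA2 only. Of the 16 between SMARCC1 and SMARCC2, 10 put one into SMARCC2 only and 3 into SMARCC1 only. Of the 13 between ARID1B and ARID1A, 4 put one into ARID1A only and 5 into ARID1B only. At the third codon position SMARCA2 carried 56.8% G and C and SMARCA4 79.3%, SMARCC1 43.4% and SMARCC2 59.7%, and ARID1B 67.6% and ARID1A 64.6%.

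The members differ widely in base composition, which the results below return to. The following stretches of 100 coding bases were taken because their G and C share is nearest to that of the whole transcript of the gene, and capitals mark every G and C. ARID2 (chr12:45817729-45817828, exon 5 of 21, plus strand) and PBRM1 (chr3:52662177-52662276, exon 5 of 32, minus strand) had the transcripts poorest in G and C among the 10, at 40.5% and 41.8%.
ARID2: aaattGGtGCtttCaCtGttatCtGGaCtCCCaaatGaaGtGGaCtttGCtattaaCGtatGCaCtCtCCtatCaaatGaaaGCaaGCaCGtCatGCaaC
PBRM1: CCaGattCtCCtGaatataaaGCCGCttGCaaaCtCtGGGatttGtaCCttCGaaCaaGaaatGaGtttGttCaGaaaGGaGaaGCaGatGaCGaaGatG

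SMARCB1 (chr22:23800957-23801056, exon 4 of 9, plus strand) and ARID1A (chr1:26729651-26729750, exon 2 of 20, plus strand) stood near the other end, at 59.6% and 57.5%.
SMARCB1: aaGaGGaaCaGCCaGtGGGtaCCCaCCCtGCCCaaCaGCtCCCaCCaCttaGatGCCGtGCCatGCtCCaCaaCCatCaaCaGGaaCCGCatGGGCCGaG
ARID1A: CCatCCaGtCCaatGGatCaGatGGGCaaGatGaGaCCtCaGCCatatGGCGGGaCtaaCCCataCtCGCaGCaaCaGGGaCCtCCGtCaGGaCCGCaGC

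In the remaining members the share was 42.0% for SMARCE1, 46.5% for SMARCC1, 48.8% for SMARCA2, 53.4% for SMARCC2, 53.6% for ARID1B and 60.6% for SMARCA4.

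Total counts ranged from 20376722 to 21629573 in the GC0643 overexpression libraries and from 20489033 to 24069166 in the Vector control libraries. Levels below are CPM, in which each count is set against its library's total as scaled by edgeR's TMM method. With edgeR's quasi-likelihood test none of the 19528 genes tested passed an adjusted p under 0.05 (0% called), and 3581 (18.3%) lay under 0.05 before adjustment. At the adjusted threshold the likelihood ratio test called 16 genes, DESeq2 called 11 and limma voom 0. Vector control replicate 2 stood with the GC0643 overexpression libraries, and whether its label is right was not tested, which bears on each comparison of the groups below. The squared difference of its counts from GC0643 overexpression replicates 1, 2 and 3 was 9.81, 2.91 and 4.08 times that of sampling noise. From Vector control replicates 1 and 3 it was 13.3 and 35.4 times. These are medians over genes with higher mean counts. All 8 gastric epithelium markers, such as MUC5AC and TFF1, were too low to be tested, and 4 of them were at 0 in all 6 libraries. EPCAM and CDH1, which mark epithelial cells, stayed under 1 CPM in all 6 libraries, and KRT18 and KRT19 were at or near 0. KRT8 and CLDN4 were the 2 of the 6 epithelial markers that could be tested, and the 6 summed to 6.86 to 11.3 CPM in GC0643 overexpression and to 8.52 to 9.36 CPM in Vector control. The 7 mesenchymal markers summed to 4909 to 5328 CPM in GC0643 overexpression and to 4989 to 5136 CPM in Vector control, most of it from VIM and COL1A1. CDH2 did not pass the filter on low counts. Of the 6 of these that were tested, FN1, COL1A2, LUM and ZEB1 had a positive log2 fold change with an unadjusted edgeR p under 0.05, where 13.1% of all genes were higher. VIM (0.03) and COL1A1 (−0.08), which made up most of the sum, had not. After the correction for base composition described below, FN1 (0.51), COL1A2 (0.57) and LUM (0.46) had an unadjusted edgeR p under 0.05 and ZEB1 (0.09) had not. Their part in the subunit values was not tested. Endothelial and erythroid markers were at or near 0.

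All 10 members were expressed in all 6 libraries and passed the filter on low counts. Levels of different genes were compared per kilobase of the canonical transcript. SMARCA4, the main ATPase in many proliferating cells, was the most abundant at 118 ± 9.26 CPM per kilobase (SD, n = 6). SMARCC2, a scaffold of the core, was next at 42.2 ± 1.97. SMARCB1, the core subunit lost in rhabdoid tumours, stood at 22.5 ± 3.05 CPM per kilobase, SMARCC1 at 22.3 ± 3.30 and ARID1A at 18.5 ± 1.46. The ranges of these last 3 overlapped. SMARCB1 was above SMARCC1 in 2 of 6 libraries, and SMARCC1 above ARID1A in 5 of 6. SMARCA2 followed at 13.97 ± 1.77 and SMARCE1, an HMG-box protein of the core, at 10.8 ± 1.38 CPM per kilobase. Their ranges overlapped, although SMARCA2 was the higher of the pair within every library. ARID1B stood at 7.51 ± 0.363, PBRM1 at 3.14 ± 0.739 and ARID2 at 3.14 ± 0.705 CPM per kilobase, and the ranges of these last 2 overlapped, with PBRM1 the higher in 4 of 6 libraries. The 2 members that define PBAF were the least abundant of the 10 per kilobase of canonical transcript, but not with the union of exons as the length. With the union of all annotated exons as the length, SMARCA4 and SMARCC2 kept ranks 1 and 2, SMARCB1 moved to rank 5 and ARID1B moved to rank 10, below PBRM1 at rank 8 and ARID2 at rank 9.

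**Figure D1:**
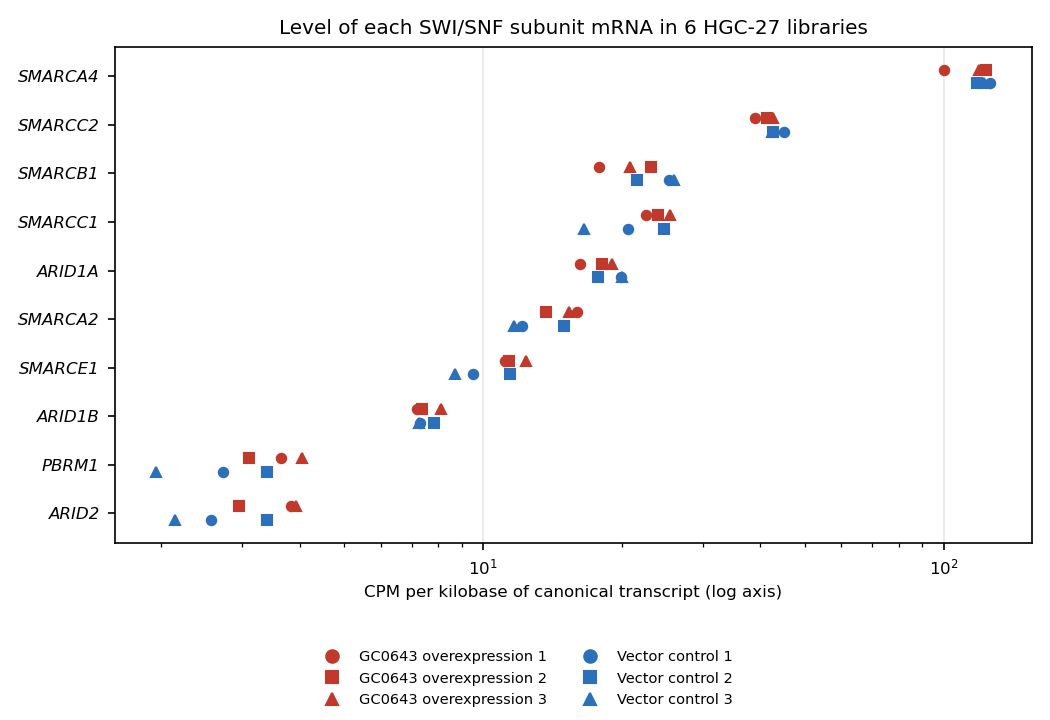
Level of each of the 10 SWI/SNF subunit mRNAs in CPM per kilobase of canonical transcript (horizontal log axis), with 1 point per library, red for GC0643 overexpression and blue for Vector control, and symbols for the replicates. SMARCA4 lies above 100 CPM per kilobase in all 6 libraries, and PBRM1 and ARID2 lie lowest, with both groups overlapping for every gene.

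Between the groups, the log2 fold changes of the 10 members lay between −0.24 and 0.42. Positive log2 fold changes (GC0643 overexpression over Vector control) were found for 6 and negative ones for 4, with a median of 0.12, against 0.02 over all 19528 genes tested. With a correction for transcript length the median turned to −0.04, against −0.02 over all genes, with 5 members positive, ARID1A at −0.28 and SMARCA4 at −0.23. None passed an adjusted p under 0.05 by edgeR's quasi-likelihood test, the likelihood ratio test, DESeq2 or limma voom. At an unadjusted p under 0.05, 2 were higher, ARID2 and PBRM1, where 13.1% of all genes were higher, and 0 were lower, where 5.26% of all genes were lower. In 0 of the 10 were the groups free of overlap, against 22.4% of all genes tested.

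ARID2, which carries an ARID domain and zinc fingers and is found in PBAF, lies on chromosome 12 (chr12:45729706-45908040, plus strand). It stood at 32.9, 25.4 and 33.7 CPM in GC0643 overexpression replicates 1 to 3, against 22.1, 29.2 and 18.5 CPM in Vector control replicates 1 to 3. The groups overlapped because Vector control replicate 2 lay above GC0643 overexpression replicate 2. The means were 30.7 ± 4.56 and 23.2 ± 5.44 CPM (SD, n = 3 each), and the log2 fold change was 0.40 (SE 0.18, 95% interval 0.03 to 0.78; edgeR unadjusted p = 0.037, adjusted p = 0.27). PBRM1, whose run of bromodomains binds acetylated histones, lies on chromosome 3 (chr3:52545352-52685917, minus strand). It stood at 29.1, 24.8 and 32.3 CPM in GC0643 overexpression, against 21.7, 27.1 and 15.6 CPM in Vector control. The same pair of libraries overlapped as for ARID2. The means were 28.7 ± 3.80 and 21.5 ± 5.77 CPM (SD, n = 3 each), and the log2 fold change was 0.42 (SE 0.18, 95% interval 0.03 to 0.81; edgeR unadjusted p = 0.038, adjusted p = 0.27). Both calls at the unadjusted p were lost when GC0643 overexpression replicate 1 or 3, or Vector control replicate 1 or 3, was left out. Without Vector control replicate 2 the log2 fold changes were 0.60 for ARID2 (edgeR adjusted p = 0.020) and 0.63 for PBRM1 (adjusted p = 0.022), in a fit in which 3813 genes passed. Without Vector control replicate 3 they were 0.25 for ARID2 and 0.23 for PBRM1, and in the 4 other such fits ARID2 lay between 0.33 and 0.51 and PBRM1 between 0.33 and 0.51.

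Of the ATPases, SMARCA4 lies at chr19:10960932-11079426 (plus strand) and stood at 560, 689 and 667 CPM in GC0643 overexpression, against 705, 658 and 681 CPM in Vector control. GC0643 overexpression replicate 1 was the lowest of the 6 and the other libraries were mixed. Its means were 639 ± 69.1 and 681 ± 23.2 CPM (SD, n = 3 each), with a log2 fold change of −0.09 (SE 0.11, 95% interval −0.34 to 0.15; edgeR adjusted p = 0.64). SMARCA2, the alternative ATPase, lies at chr9:1980290-2193624 (plus strand) and stood at 91.9, 78.7 and 88.4 CPM in GC0643 overexpression, against 69.7, 86.1 and 67.2 CPM in Vector control. Vector control replicate 2 again lay inside the GC0643 overexpression range, and the other 2 Vector control libraries lay below it. The means were 86.3 ± 6.82 and 74.3 ± 10.3 CPM (SD, n = 3 each), with a log2 fold change of 0.22 (SE 0.13, 95% interval −0.07 to 0.50; edgeR adjusted p = 0.35).

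Canonical BAF is defined by ARID1A or ARID1B, large proteins that hold the core together. ARID1A, on chromosome 1 (chr1:26693236-26782104, plus strand), stood at 140, 156 and 163 CPM in GC0643 overexpression, against 172, 153 and 173 CPM in Vector control. Vector control replicate 2 lay inside the GC0643 overexpression range and the other 2 Vector control libraries above it. The means were 153 ± 12.1 and 166 ± 11.1 CPM (SD, n = 3 each), with a log2 fold change of −0.11 (SE 0.12, 95% interval −0.37 to 0.14; edgeR adjusted p = 0.57). ARID1B, on chromosome 6 (chr6:156776020-157210779, plus strand), stood at 73.9, 76.2 and 83.4 CPM in GC0643 overexpression, against 75.4, 80.5 and 74.9 CPM in Vector control. The groups were interleaved over a narrow range. Its log2 fold change was 0.02 (SE 0.12, 95% interval −0.24 to 0.27; edgeR adjusted p = 0.95), and its sign turned under 6 of 18 alternatives.

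The core members differed in sign. SMARCB1, which contacts the acidic patch of the nucleosome, lies on chromosome 22 (chr22:23786931-23838009, plus strand) and stood at 92.5, 120 and 108 CPM in GC0643 overexpression, against 132, 112 and 135 CPM in Vector control. Only GC0643 overexpression replicate 2 and Vector control replicate 2 were out of order. The means were 107 ± 13.9 and 126 ± 12.3 CPM (SD, n = 3 each), and the log2 fold change of −0.24 was the most negative of the 10 (SE 0.13, 95% interval −0.52 to 0.04; edgeR adjusted p = 0.31). SMARCE1, on chromosome 17 (chr17:40624962-40648654, minus strand), stood at 57.4, 58.5 and 64.0 CPM in GC0643 overexpression, against 48.9, 59.0 and 44.9 CPM in Vector control. Vector control replicate 2 was the only library of its group inside the GC0643 overexpression range. The log2 fold change was 0.24 (SE 0.14, 95% interval −0.05 to 0.52; edgeR adjusted p = 0.33).

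SMARCC1 and SMARCC2 form the dimer on which the complex is built. SMARCC1, on chromosome 3 (chr3:47585269-47782106, minus strand), stood at 144, 152 and 162 CPM in GC0643 overexpression, against 131, 157 and 105 CPM in Vector control. The GC0643 overexpression libraries were close together, while Vector control spread from the lowest value of the 6 to the second highest. The log2 fold change was 0.22 (SE 0.14, 95% interval −0.08 to 0.52; edgeR adjusted p = 0.38). SMARCC2, on chromosome 12 (chr12:56162359-56189567, minus strand), stood at 199, 211 and 217 CPM in GC0643 overexpression, against 229, 217 and 216 CPM in Vector control. The groups met at about the same level, with a log2 fold change of −0.08 (SE 0.11, 95% interval −0.32 to 0.15; edgeR adjusted p = 0.68). For 8 of the 10 members the 95% interval includes 0, which does not show that the groups are alike.

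**Figure D2:**
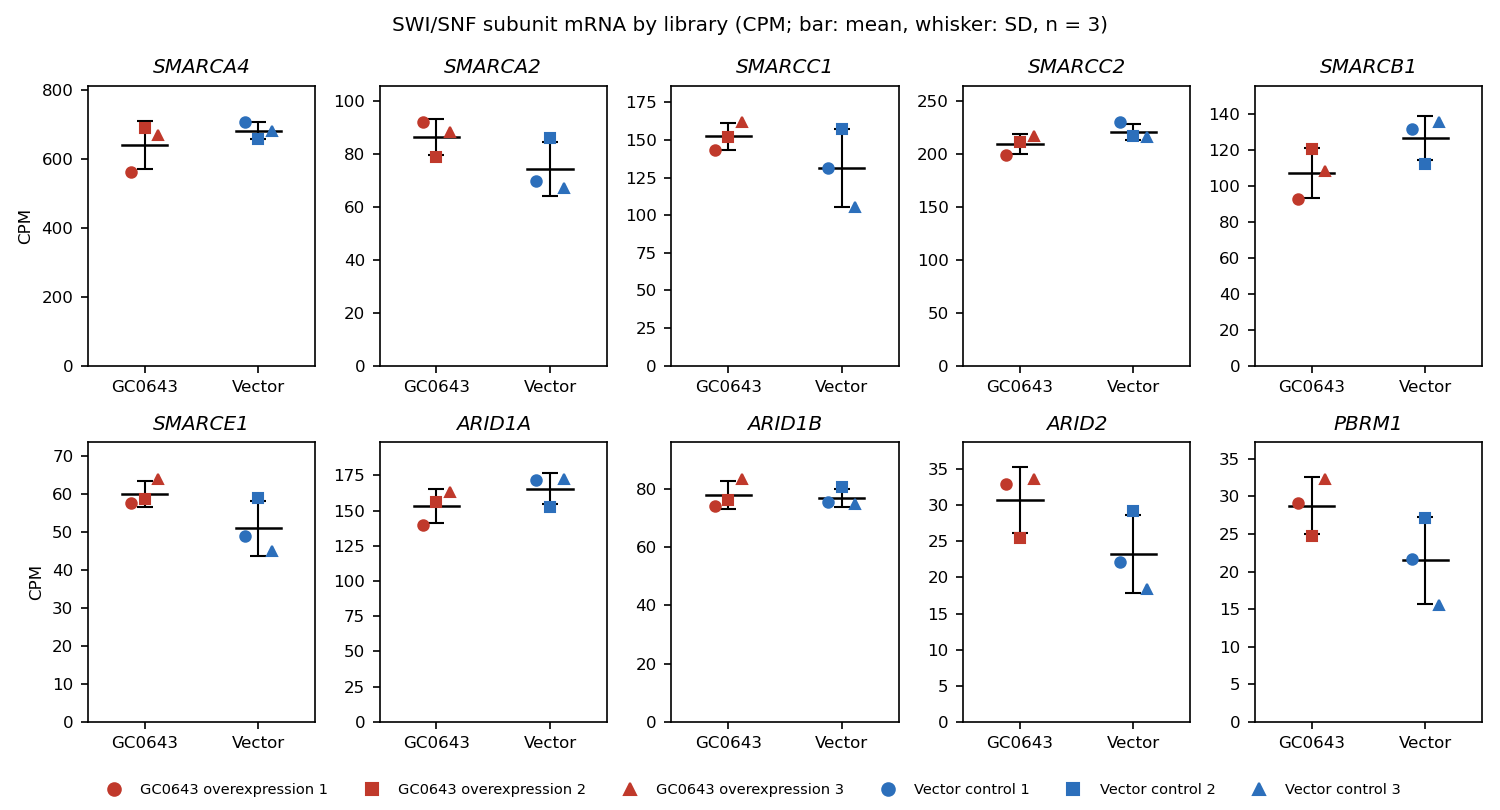
CPM of each subunit in the 3 GC0643 overexpression libraries (red, left) and the 3 Vector control libraries (blue, right), with the mean as a bar and the SD as whiskers, on axes that start at 0. Vector control replicate 2 (blue square) lies within or next to the GC0643 overexpression values for ARID2, PBRM1, SMARCA2, SMARCC1 and SMARCE1, and the groups overlap in all 10 panels.

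Left out in turn, single libraries decided how many members passed the unadjusted p under 0.05 in edgeR. It was 0 for the higher ones when GC0643 overexpression replicate 1 or 3 or Vector control replicate 1 or 3 was dropped, beside 4.14% to 7.71% of all genes, and 2 when GC0643 overexpression replicate 2 was, beside 10.2%. On dropping Vector control replicate 2 it was 5, with 1 lower, where 22.8% of all genes were higher and 14.2% lower. The 5 were ARID2, PBRM1, SMARCE1, SMARCC1 and SMARCA2, the 1 lower was SMARCB1, and ARID2, PBRM1 and SMARCE1 also passed the adjusted p (SMARCE1 0.36, adjusted p = 0.049). Without GC0643 overexpression replicate 2, SMARCB1 was lower as well (−0.35, edgeR unadjusted p = 0.040). On dropping Vector control replicate 3 the log2 fold changes were 0.07 for SMARCC1, 0.15 for SMARCE1 and 0.14 for SMARCA2, and on dropping GC0643 overexpression replicate 1 they were −0.15 for SMARCB1 and −0.0057 for SMARCA4.

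Related subunits were also compared within each library, as ratios of CPM per kilobase that need no scaling between libraries. SMARCA2 made up 13.7%, 9.97% and 11.4% of the summed ATPase mRNA in GC0643 overexpression, against 8.76%, 11.3% and 8.74% in Vector control. SMARCA4 was therefore the predominant ATPase mRNA in all 6 libraries. The log2 ratio of SMARCA2 over SMARCA4 was −2.93 ± 0.26 in GC0643 overexpression and −3.25 ± 0.23 in Vector control, a difference of 0.32 (SD, n = 3 each; exact permutation test, two-sided, p = 0.2, adjusted p = 0.3 over 4 ratios). With 3 libraries against 3 this test cannot give a p below 0.1.

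ARID1A took 59.6%, 63.7% and 61.3% of the summed ARID1A, ARID1B and ARID2 mRNA in GC0643 overexpression, against 66.9%, 61.3% and 68.1% in Vector control. ARID2 took 14.1%, 10.4% and 12.6% in GC0643 overexpression, against 8.62%, 11.7% and 7.28% in Vector control. Per kilobase of canonical transcript, ARID1A was the largest of the 3 shares in every library and ARID2 the smallest, whereas per kilobase of the union of exons the mean level of ARID2 (2.17 CPM per kilobase) was above that of ARID1B (1.68). The log2 ratio of ARID2 over ARID1A plus ARID1B was −2.84 ± 0.25 in GC0643 overexpression and −3.33 ± 0.38 in Vector control, a difference of 0.49 (SD, n = 3 each; exact permutation test, p = 0.2, adjusted p = 0.3). The log2 ratio of ARID1B over ARID1A was −1.24 ± 0.06 in GC0643 overexpression and −1.37 ± 0.16 in Vector control, a difference of 0.13 (exact permutation test, n = 3 each, p = 0.3, adjusted p = 0.3). SMARCC1 over SMARCC2 stood at −0.77 ± 0.02 in GC0643 overexpression and −1.09 ± 0.29 in Vector control, a difference of 0.32 (exact permutation test, n = 3 each, p = 0.3, adjusted p = 0.3). In each of the 4 ratios Vector control replicate 2 lay inside the range of the GC0643 overexpression libraries. Without it the differences were 0.45, 0.22, 0.47 and 0.70 for SMARCA2 over SMARCA4, ARID1B over ARID1A, SMARCC1 over SMARCC2 and ARID2 over ARID1A plus ARID1B. On dropping Vector control replicate 3 instead, the same differences were 0.25, 0.08, 0.18 and 0.32, and SMARCA2 over SMARCA4 was lowest, at 0.18, without GC0643 overexpression replicate 1. ARID1B over ARID1A was 0.09 without Vector control replicate 1.

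**Figure D3:**
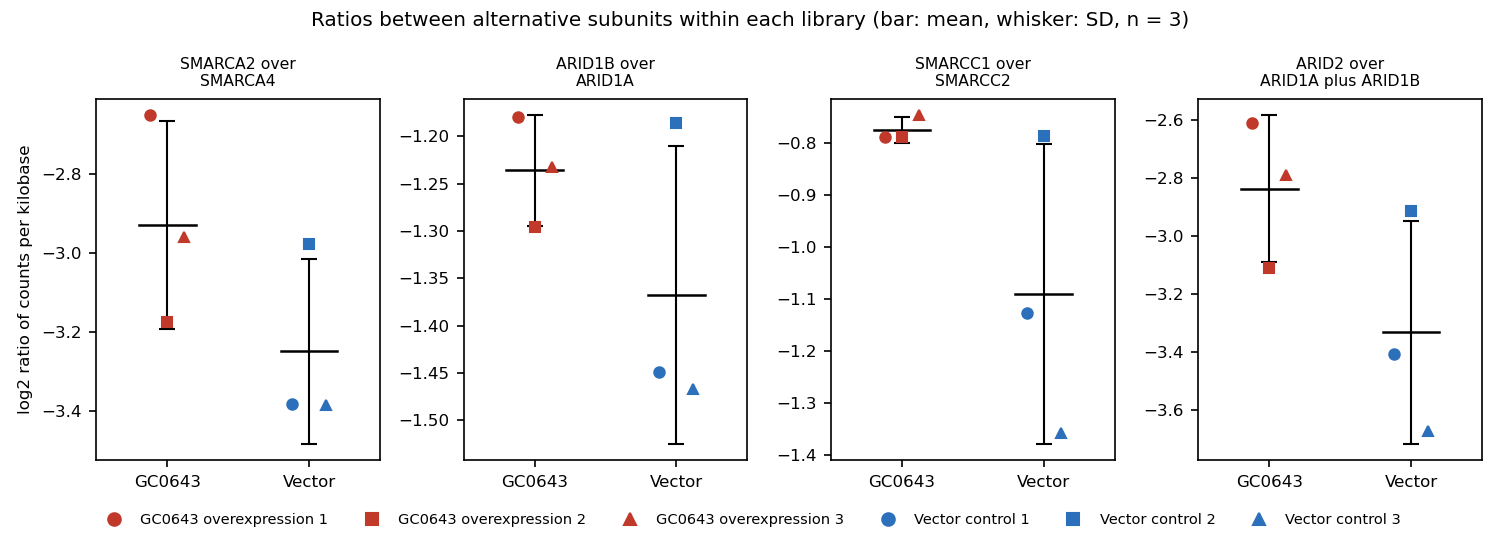
Log2 ratio of CPM per kilobase between related subunits of the complex, in the 3 GC0643 overexpression libraries (red, left) and the 3 Vector control libraries (blue, right), with the mean as a bar and the SD as whiskers. Each of the 4 vertical axes has its own range and does not start at 0. The mean is higher in GC0643 overexpression for all 4 ratios, by 0.13 to 0.49, and Vector control replicate 2 (blue square) overlaps the GC0643 overexpression points in each panel.

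Fold changes of the members followed the base composition of their transcripts. The log2 fold change and the G and C share of the canonical transcript had a Spearman coefficient of −0.94 and a Pearson r of −0.95 over the 10 members, which share the same 6 libraries. The Spearman coefficient was −0.69 over the 20 other SWI/SNF subunits tested and −0.67 over 19401 genes, so the relation was not confined to the members. ARID2, PBRM1 and SMARCE1, the members poorest in G and C, had log2 fold changes of 0.40, 0.42 and 0.24. SMARCA4, SMARCB1 and ARID1A, the richest, had −0.09, −0.24 and −0.11. Within libraries, the rank correlation between a gene's deviation from its mean and its G and C share was −0.48, −0.28 and −0.52 in GC0643 overexpression, against 0.55, −0.26 and 0.59 in Vector control. Vector control replicate 2 thus had the sign of the GC0643 overexpression libraries.

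After a loess correction for G and C share, 8 of the 10 members had a positive log2 fold change, the values lay between −0.06 and 0.18, and the smallest unadjusted edgeR p was 0.13. ARID2 then had a log2 fold change of 0.13 (edgeR unadjusted p = 0.29) and PBRM1 of 0.18 (edgeR unadjusted p = 0.21). SMARCA4 stood at 0.09 and ARID1A at 0.04, both with the sign turned. SMARCA2 kept 0.16 and SMARCB1 −0.06. The 4 ratios shrank to differences of 0.08 for SMARCA2 over SMARCA4, 0.06 for ARID1B over ARID1A, 0.10 for SMARCC1 over SMARCC2 and 0.07 for ARID2 over ARID1A plus ARID1B. The median of the 10 members was 0.09 after the correction, and across the 10 members the Spearman coefficient between fold change and G and C share was −0.50. Over all 19401 genes with a G and C share, 9749 were then positive and the coefficient was −0.07. The correction was fitted to these same genes, so these values over all genes follow largely from it. It would also remove a difference between the groups that runs with G and C share. In the corrected fit without Vector control replicate 2, an alternative chosen after the data had been seen, 1 member was higher at an unadjusted p under 0.05, SMARCA2 (0.26, edgeR unadjusted p = 0.026), beside 6.82% of all genes, and 0 genes passed the adjusted p.

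**Figure D4:**
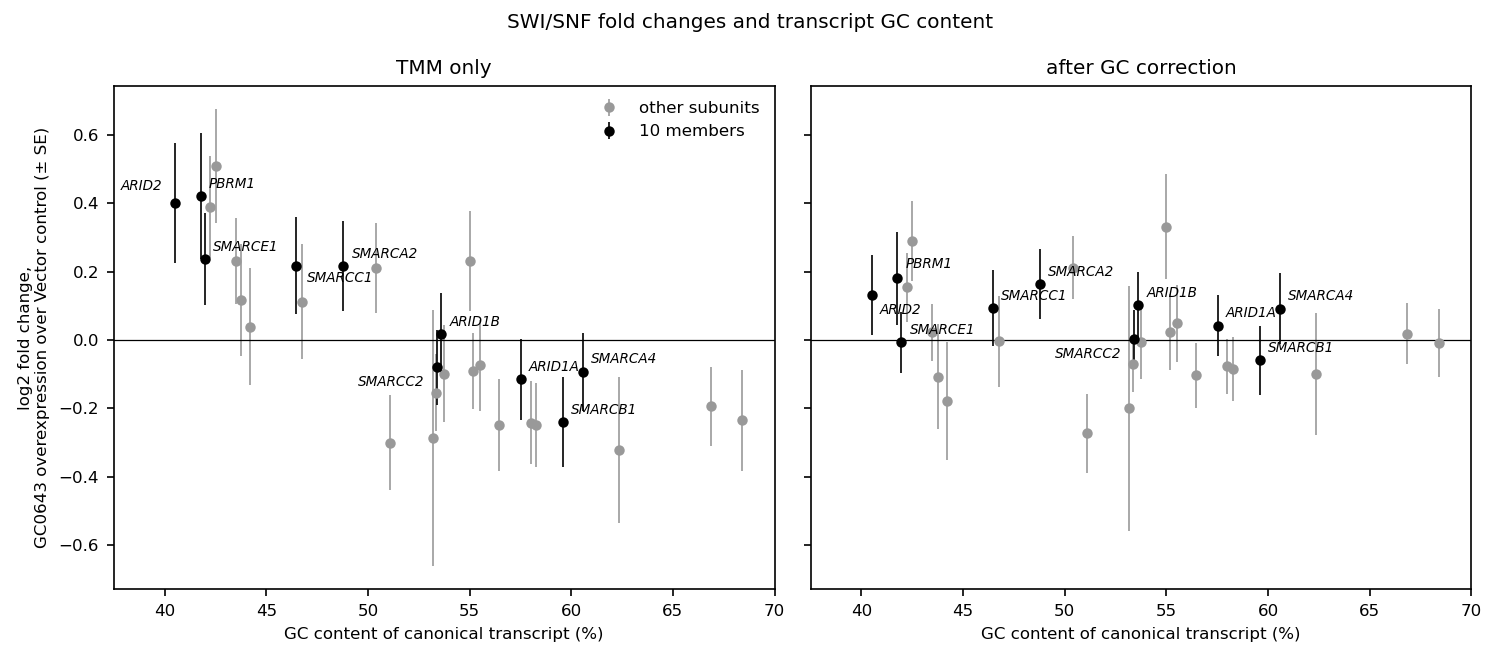
Log2 fold change of GC0643 overexpression over Vector control (vertical axis, whiskers are SE) against the G and C share of the canonical transcript (horizontal axis, %), for the 10 members (black) and the 20 other SWI/SNF subunits tested (grey), with TMM scaling only (left) and after the G and C correction (right). On the left the members poor in G and C lie high, up to 0.42 for PBRM1, and those rich in G and C lie below 0, down to −0.24 for SMARCB1, and on the right they lie between −0.06 and 0.18.

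Some members varied together across the 6 libraries, some ran opposite, and ARID1B followed neither closely, with a Pearson r between −0.16 and 0.66 to the other members. The Pearson r of log2 CPM was 0.98 between ARID2 and SMARCA2, 0.97 between ARID2 and PBRM1 and 0.96 between SMARCC1 and SMARCE1, while SMARCB1 and SMARCA2 ran opposite at −0.94. ARID1A and SMARCB1, both rich in G and C, had r = 0.89. These are descriptions over 6 libraries that share the composition shift just given. The 5 protein-coding genes most like ARID1A among 13765 searched were ENSG00000262304 (r = 0.995), OGG1 (0.992), TRIM47 (0.991), FBXO41 (0.988) and KMT2D (0.988), over 6 libraries. OGG1 repairs oxidised guanine and KMT2D is a histone methyltransferase of enhancers. Their transcripts held 58.7% to 66.4% G and C, near or above the 57.5% of ARID1A.

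The other parts of the complex gave a mixed picture. Of 21 further SWI/SNF subunits, 20 were tested, 8 on the positive and 12 on the negative side (median log2 fold change −0.09). None passed the adjusted p in edgeR's quasi-likelihood test with all 6 libraries and the filter on low counts. Without Vector control replicate 2, 8 of all 31 subunits passed, members included, in a fit in which 3813 genes passed. With no filter 1 of the 31 passed, in a fit in which 224 genes passed. ACTL6B, the neuronal counterpart of ACTL6A, was not tested, with 0 to 3 counts per library. At an unadjusted p under 0.05, 2 were higher, beside 13.1% of all genes, and 1 was lower, beside 5.26%. In 7 of the 20 the groups did not overlap, beside 22.4% of all genes tested. Among these 7, SS18 and ACTL6A were higher in GC0643 overexpression, while SMARCD1 (−0.15) and SMARCD3 (−0.25) were lower. SS18, the subunit fused to SSX in synovial sarcoma, stood at 95.7, 86.3 and 95.9 CPM in GC0643 overexpression, against 62.1, 84.5 and 48.8 CPM in Vector control. Its groups did not overlap, though Vector control replicate 2 came close, and the log2 fold change was 0.51 (SE 0.17; edgeR unadjusted p = 0.0081, adjusted p = 0.26), or 0.29 after the G and C correction (edgeR unadjusted p = 0.031). ACTL6A, the actin-like subunit of dividing cells, stood at 46.6, 44.3 and 51.5 CPM in GC0643 overexpression, against 36.4, 42.9 and 29.4 CPM in Vector control. The groups did not overlap, with a log2 fold change of 0.39 (SE 0.15; edgeR unadjusted p = 0.020), or 0.15 after the correction (edgeR unadjusted p = 0.15). DPF2, which reads histone marks through its PHD fingers, stood at 78.8, 86.0 and 83.4 CPM in GC0643 overexpression, against 100, 84.3 and 121 CPM in Vector control. Its groups overlapped, and the log2 fold change was −0.30 (SE 0.14; edgeR unadjusted p = 0.047), or −0.27 after the correction (edgeR unadjusted p = 0.037). BCL11B, a zinc finger subunit, had an unadjusted edgeR p under 0.05 only after the correction, with 0.21 before and after it. Over all 31 subunits, members included, 4 higher and 1 lower ones had an edgeR p under 0.05 before adjustment, beside 13.1% and 5.26% of all genes. On dropping 1 library the higher ones numbered 9 without Vector control replicate 2, beside 22.8% of all genes, and 2 without GC0643 overexpression replicate 1, beside 6.5%. They numbered 1 when GC0643 overexpression replicate 3 or Vector control replicate 1 or 3 was dropped, beside 4.14% to 7.71%. The lower ones numbered 6 without Vector control replicate 2, beside 14.2%, and 0 in these other 4 fits, beside 1.84% to 2.85%.

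Ordered by assembly, all 4 subunits that define PBAF (ARID2, PBRM1, BRD7 and PHF10) had positive log2 fold changes, with a median of 0.32 before and 0.16 after the G and C correction. BRD7, a bromodomain protein, and PHF10, a PHD finger protein, each stood at 0.23, and after the correction BRD7 stood at 0.02 and PHF10 at 0.33. Of the 5 that define canonical BAF (ARID1A, ARID1B, DPF1, DPF2 and DPF3), 1 was positive and 4 were negative before the correction, with a median of −0.29. After it 2 were positive and 3 negative, with a median of −0.10. The first median is the value of DPF3 (SE 0.38), at 0.63 to 1.29 CPM after the correction. The second is that of DPF1 (SE 0.18), at 6.99 to 11.5 CPM. ARID1A and ARID1B stood at −0.11 and 0.02 before the correction and at 0.04 and 0.10 after it. The difference between the 2 assemblies was not tested.

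Remodellers outside SWI/SNF are given for comparison. Of 40 listed, 24 log2 fold changes were above 0 and 16 below (median 0.15), and 10 genes were higher and 4 lower at an unadjusted edgeR p under 0.05, beside 13.1% and 5.26% of all genes. Those higher numbered 17 without Vector control replicate 2, beside 22.8% of all genes, and 4 to 6 when GC0643 overexpression replicate 1 or 3 or Vector control replicate 1 or 3 was dropped, beside 4.14% to 7.71%. The smallest p-values belonged to CHD9, a chromodomain helicase (0.49), ATRX, which deposits histone H3.3 in heterochromatin (0.50), and ACTR8, an actin-related subunit of INO80 (0.44). Polycomb repressive complex 2, which SWI/SNF opposes at many genes, had 8 of 11 components positive with a median of 0.22, and 3 were higher (SUZ12 0.49, AEBP2 0.47 and MTF2 0.49) and 0 lower at an unadjusted edgeR p under 0.05. Adjusted p was 0.26 for each of these 6 genes. After the G and C correction none of the 6 had an unadjusted edgeR p under 0.05, with CHD9 at 0.18, ATRX at 0.17, ACTR8 at 0.24, SUZ12 at 0.19, AEBP2 at 0.17 and MTF2 at 0.17.

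Annotated neighbours bear on the count of some members. The exons of SMARCE1 share 18.9% of their bases with ENSG00000264058, a protein-coding gene on the same strand, which had 983 to 1261 counts per library against 993 to 1297 for SMARCE1. For its tumour RNA-seq the study's methods name a featureCounts option under which a read shared by overlapping genes is counted for each of them, and whether it was used for these libraries is not given in the sources used here, so the SMARCE1 values are uncertain. Other genes on the strand of the member were ENSG00000258199 for SMARCC2 (149 to 222 counts, 2.08% of its exonic bases) and ENSG00000278643 for SMARCA4 (93 to 139 counts, 0.64%). The 7 SMARCE1 pseudogenes (SMARCE1P1 to SMARCE1P7) together held 69 counts, equal to 0.978% of the 7055 of SMARCE1. On the opposite strand, SMARCC2 overlaps MYL6 over 7.83% of its exonic bases, and MYL6 had 6708 to 7203 counts per library. SMARCB1 overlaps DERL3 over 17.7%, and DERL3 had 2 to 8 counts. The opposite-strand overlaps of PBRM1 with UQCC5 (202 to 263 counts), of SMARCA2 with SMARCA2-AS1 (14 to 40 counts), of ARID1A with ENSG00000260063 (5 to 23 counts), of ARID1B with ENSG00000271551 (51 to 75 counts) and of SMARCE1 with ENSG00000278834 (41 to 97 counts) covered 1.51% to 3.38% of the exonic bases of the member. Without the strand of the counting, reads from such overlaps cannot be assigned to either gene.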

How the data were processed

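RNA of 6 HGC-27 libraries was prepared with the NEBNext Ultra RNA kit. Per the labels and the submitters' processing notes, the authors made the deposited counts by trimming (Trimmomatic 0.32), alignment to GRCh38 (HISAT2 2.1.0) and counting of reads per gene (featureCounts 2.0.0). Counting options and strand for these libraries are not given in the sources used here. The deposited values are raw whole-number counts per Ensembl gene.

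Of 58825 genes, 58472 were matched to GENCODE 44, which gave positions, sequences, and the length and G and C share of the canonical transcript. In R 4.3.3, genes were filtered by edgeR 4.0.16 (filterByExpr), scaled by TMM and compared with its quasi-likelihood test with group as the only term. The Benjamini-Hochberg adjustment ran over 19528 genes. The common biological coefficient of variation was 14.8%. Ratios were compared by exact permutation tests. Figures were drawn in Python 3.11.15 with matplotlib 3.10.9, and coding sequences were aligned with Biopython 1.88.

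The 10 members and all gene lists were chosen with earlier results of these data known. Named genes were all members, the other subunits with an unadjusted p under 0.05 or not tested, the 3 smallest p-values of each comparison list, the 5 genes most like ARID1A, and pseudogenes and opposite-strand overlapping genes of the members. BRD7, PHF10, BCL11B, DPF1, DPF3, SMARCD1, SMARCD3, the marker genes and overlapping genes on a member's own strand were named after their values had been seen.

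Alternatives were the likelihood ratio test, DESeq2 1.42.0, limma 3.58.1 voom, scaling by DESeq2's size factors or by library size alone, leaving out the filter, CPM over 1 in at least 3 libraries, a replicate block, loess corrections (span 0.3, prior count 1) for G and C or length, the block with the G and C correction, and leaving out each library. For the ratios these were the union of exons, the G and C correction, the block and leaving out each library. The code was tested on simulated data.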

Additional observations from a re-analysis of the deposited data

How the results depend on the processing

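The signs of SMARCA2, SMARCC1, SMARCB1, ARID2 and PBRM1 and of the 4 ratios held under each alternative run, and no member passed the adjusted p except ARID2, PBRM1 and SMARCE1 without Vector control replicate 2. For the ratios, the replicate block could not change a difference, and neither could the union of exons where single genes were compared. The log2 fold change of ARID1B turned to −0.010 with DESeq2 and with DESeq2's size factors and to −0.15 with the length correction. Leaving out 1 library gave ARID1B values between −0.034 and 0.054, with the sign turned without GC0643 overexpression replicate 3 (−0.034), Vector control replicate 1 (−0.0066) or Vector control replicate 3 (−0.0098). With the G and C correction, SMARCA4 turned to 0.092, SMARCC2 to 0.0024, SMARCE1 to −0.0064 and ARID1A to 0.042. With that correction and without Vector control replicate 2, chosen after the data had been seen, SMARCA4 turned to 0.14, SMARCC2 to 0.034 and ARID1A to 0.056. The causes were not tested.

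Genes past the adjusted p numbered 0 in the quasi-likelihood test, 16 in the likelihood ratio test, 11 with DESeq2, 1 with its size factors and 224 with no filter. Over the fits that leave out 1 library they numbered 0 to 3813, the highest without Vector control replicate 2. Members higher at an unadjusted p under 0.05 were 0 with the G and C or the length correction, beside 2.87% and 8.05% of all genes. On leaving out 1 library they were 0 to 5, beside 4.14% to 22.8%. Members lower were 1 with the length correction, beside 8.64% of all genes, and 0 to 1 on leaving out 1 library, beside 1.84% to 14.2%. Of all 31 SWI/SNF subunits, 4 were higher and 1 was lower in the quasi-likelihood test, beside 13.1% and 5.26% of all genes. The number higher was 2 with the G and C or the length correction, where 2.87% and 8.05% of all genes were higher, and 1 to 9 on leaving out 1 library, where 4.14% to 22.8% were. The number lower was 3 with DESeq2 or the length correction, where 7.19% and 8.64% of all genes were lower. It was 0 with limma voom, beside 5.05%, and 2 with library size alone, beside 5.52%. On leaving out 1 library it was 0 to 6, where 1.84% to 14.2% of all genes were lower. Of the other remodellers, 2 were higher and 1 was lower with the G and C correction, beside 2.87% and 3.24% of all genes. With the length correction 5 were higher and 6 were lower, beside 8.05% and 8.64%. On leaving out 1 library 4 to 17 were higher and 1 to 6 lower, beside 4.14% to 22.8% and 1.84% to 14.2%. With the G and C correction and without Vector control replicate 2, 1 member and 6 remodellers were higher and 2 remodellers were lower. The shares over all genes were then 6.82% higher and 5.31% lower.

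Same-numbered libraries did not deviate together (r = −0.22, −0.04 and −0.32 for replicates 1, 2 and 3), so the numbers were not taken as pairs. With a replicate block 24 genes passed the adjusted p. At an unadjusted p under 0.05, 0 subunits and 1 other remodeller were then lower, beside 1.61% of all genes. ARID2 (0.42) and PBRM1 (0.45) stayed under an unadjusted p of 0.05, where 9.96% of all genes were higher. With the replicate block and the G and C correction 2 genes passed the adjusted p. At an unadjusted p under 0.05, 0 members, 2 subunits and 1 other remodeller were higher, beside 2.02% of all genes. The lower ones were 0 subunits and 0 other remodellers, beside 2% of all genes. SMARCA4 then stood at 0.090, SMARCC2 at 0.0028, SMARCE1 at −0.0080 and ARID1A at 0.039. The block could not change a ratio difference, because each replicate number occurs once in each group. The exact permutation test with the block gave p = 0.5 for each ratio. The SEs of the members' log2 fold changes, 0.11 to 0.18 with 3 libraries a group, limit the precision, and the depth of a library covers counting error only.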
